A study of Macaca mulatta with 17 samples.

Results

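The nuclear receptors examined here are the estrogen receptors ESR1 (ERα) and ESR2 (ERβ) and the estrogen-related receptors ESRRA (ERRα), ESRRB (ERRβ) and ESRRG (ERRγ), a family that holds candidate binding proteins of bisphenol A (BPA). They were taken as a set because of this known role, not because of any value measured here. A probe was a member when its annotation on the array named one of the genes, which gave 5 genes of 16468 with a name on the array, each measured by 1 of the array's 20217 probes. The symbol itself named 4 of them. The ESRRA probe was found by the full name of the receptor in its annotation.

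The study asked how gene expression in the uterus of the fetal rhesus macaque changes from mid to late gestation and whether BPA given to the mother alters it. Pregnant macaques carrying female fetuses ate a daily fruit treat with 400 µg/kg of deuterated BPA or with the ethanol vehicle. One pair of groups was treated from gestational day (GD) 50 and delivered by caesarean section at GD100, with 5 control and 5 BPA-exposed fetuses. The other was treated from GD100 and delivered vaginally at about GD165, with 4 control and 3 BPA-exposed fetuses, since stillborn fetuses were left out. The animals carried no engineered allele. RNA came from one side of each uterus after a lengthwise cut from fundus to cervix, so it is a mixture of muscle, stroma, epithelium, vessels and blood, and 1 fetus gave 1 array. Gestational age and mode of delivery changed together and cannot be told apart.

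ERα and ERβ are transcription factors that bind DNA once estradiol has bound them, and in the uterus ERα carries most of the growth response of muscle, stroma and glands to estrogen. The estrogen-related receptors resemble them in sequence but do not bind estradiol. They are active without a known hormone, work with the PGC-1 coactivators and are best known for switching on genes of mitochondria and fuel oxidation. BPA binds ERα and ERβ weakly and ERRγ tightly in binding assays.

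The probes are 60-base oligonucleotides, each spotted 2 times per array, and their sequences, read from the array files and written 5′ to 3′ in lower case, are shown because each receptor is measured by nothing else. The ESR2 and ESRRB probes, the dimmest, are printed whole, and the others as their first 30 bases. Which part of the transcript each probe lies in is not stated in the files, and their genome positions are not given here.
ESR1: atgaagaaaagtattgaaagtatttggagg
ESR2: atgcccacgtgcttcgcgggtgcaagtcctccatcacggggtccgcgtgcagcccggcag
ESRRA: tgcctctatgccctgcagagcaataacact
ESRRB: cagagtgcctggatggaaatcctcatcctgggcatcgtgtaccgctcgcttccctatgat
ESRRG: tgattctgtaactccaatcagttcagatgt

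The 5 probes shared no run longer than 6 bases with each other. Their GC content differed, at 35% for ESR1 and ESRRG, 45% for ESRRA, 55% for ESRRB and 70% for ESR2, against a median of 41.67% over all probes. Only 1.45% of all probes had a GC content of 70% or more. The annotation of the ESRRA probe names a macaque locus similar to ERRα, which RefSeq's table for the assembly T2T-MMU8v2.0 lists as a transcribed pseudogene on chromosome 17, whereas it places ESRRA on chromosome 14. The signal called ESRRA below may therefore come from ESRRA, from that locus or from both, and these cannot be told apart.

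Each array gave a linear signal per spot, which was averaged over the spots of a probe on the log2 scale and scaled so that every array had the same 75th percentile, at 12.62 on the log2 scale. All levels below are on this scale and are compared only within a probe. The 17 arrays lay on 6 slides, 83.7 to 89.0% of their spots were well above background by the scanner software's test, and the number of arrays limits the precision. The markers of smooth muscle, columnar epithelium, endothelium and leukocytes were each well above background in at least 1 array of every group.

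ESR1, ESR2, ESRRA and ESRRG were well above background on all 17 arrays and in all 34 spots, and no member probe was saturated. ESRRB was well above background on 7 of 17 arrays, 2 of 5 GD100 controls, 3 of 5 GD100 BPA-exposed, 2 of 4 GD165 controls and 0 of 3 GD165 BPA-exposed. Its levels are therefore mostly at the floor of the measurement. The spread within groups, as a pooled SD on the log2 scale, was 0.105 for ESRRA, 0.244 for ESR1, 0.38 for ESR2, 0.452 for ESRRG and 1.14 for ESRRB, beside a median of 0.25 over all probes. ESRRA was thus among the steadier probes, with 8.42% of all probes showing a smaller SD, and ESRRB among the most variable, with 98.4% showing a smaller one.

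**Figure D1:**
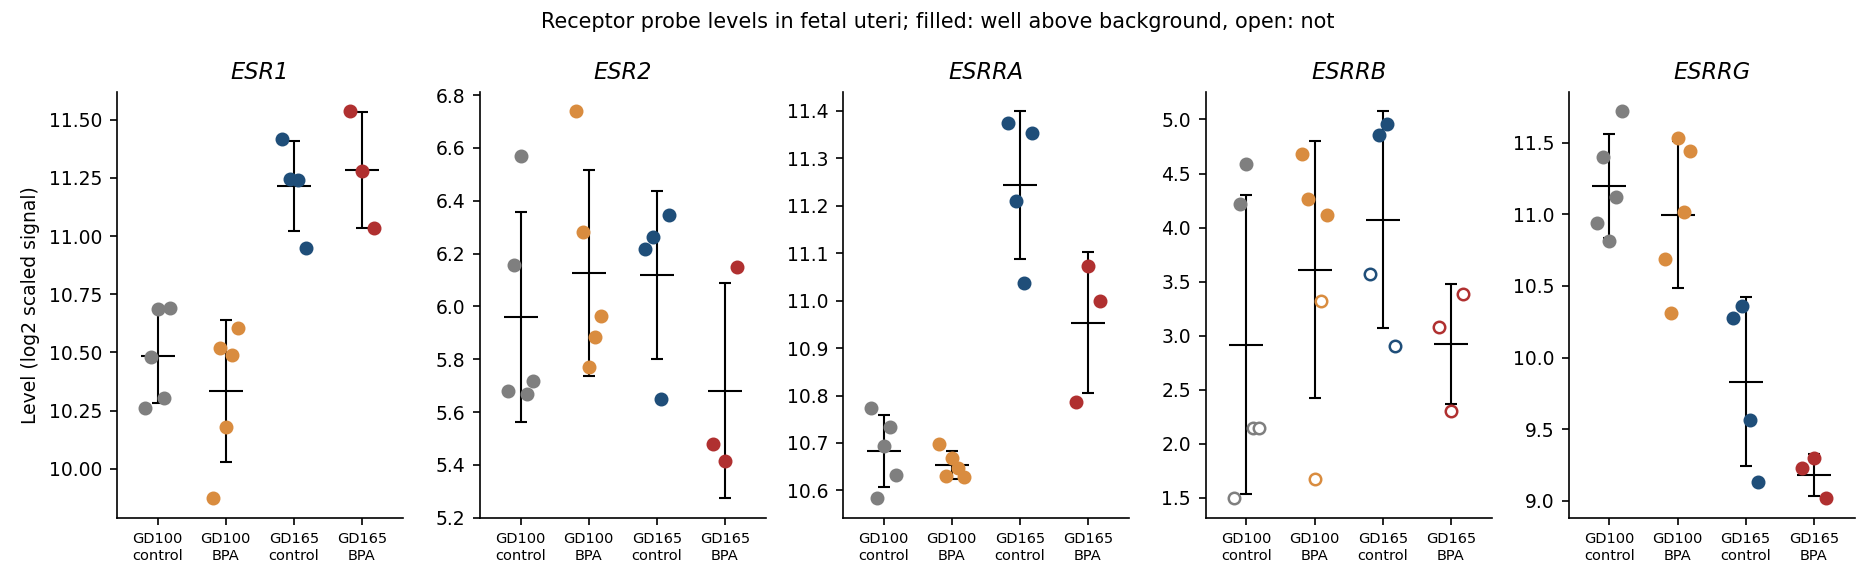
Level of each receptor probe (log2 scaled signal, a separate vertical axis for each gene) in each array of the GD100 control, GD100 BPA, GD165 control and GD165 BPA groups. Points are fetuses, filled where the probe was well above background and open where it was not; bars are mean and SD. ESR1 and ESRRA were higher and ESRRG lower at GD165, ESR2 groups overlapped, and ESRRB was well above background on 7 of 17 arrays.

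From GD100 to GD165 in control uteri, ESR1 and ESRRA rose and ESRRG fell, while ESR2 and ESRRB did not pass the test. ESR1 was 1.66-fold higher, ESRRA 1.47-fold higher and ESRRG 2.58-fold lower at GD165. Thus 3 of 5 member probes had an adjusted p under 0.01 by limma, 2 higher and 1 lower, against 11.5% of all probes, 6.32% higher and 5.2% lower. The groups did not overlap for the same 3 probes, against 19.4% of all probes. In RNA from whole tissue, fewer cells of a type and less RNA per cell cannot be told apart.

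ESR1, the classical estrogen receptor, stood at 10.26, 10.48, 10.69, 10.31 and 10.69 in the 5 GD100 controls and at 11.42, 11.25, 11.24 and 10.95 in the 4 GD165 controls. Every GD165 control was above every GD100 control, with a gap of 0.26 between the nearest values. The means were 10.49 ± 0.20 (SD, n = 5) and 11.21 ± 0.19 (SD, n = 4). The difference was 0.73 on the log2 scale (SE 0.16, 95% confidence interval 0.39 to 1.07), with a limma adjusted p of 0.00458. The two-sided exact permutation test gave p = 0.00794, the smallest that 126 regroupings allow. The call was lost in 5 of the 17 fits that left out 1 array, without GD100 control 1 or 4 or GD165 control 1, 3 or 5, where the adjusted p was 0.0114 to 0.0182. All 5 were among the fits that left out 1 of the 5 GD100 or 4 GD165 controls. The other fits left out an exposed array, which cannot change this difference. The call was also lost with slide as a fixed block, at 0.0556, and with replicate number as a block, at 0.0176. With scaling to the median it was lost at 0.0109, and without scaling at 0.0232. On the 2 slides that held both control groups, GD165 was higher by 0.56 and 0.73, each from 1 array against 1.

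ESRRA, which drives genes of energy metabolism, stood at 10.77, 10.58, 10.69, 10.73 and 10.63 in GD100 controls and at 11.37, 11.21, 11.04 and 11.35 in GD165 controls. The groups were apart by 0.26 at their nearest, and the GD100 values spanned only 0.19. The means were 10.68 ± 0.08 (SD, n = 5) and 11.24 ± 0.16 (SD, n = 4). The difference was 0.56 (SE 0.08, 95% confidence interval 0.38 to 0.74), with a limma adjusted p of 2.5e-04. It passed the threshold under every processing alternative and with each array left out, with an adjusted p of 0.00605 at most. Within the slides with both groups, the differences were 0.52 and 0.74.

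ESRRG, the family member that BPA binds most tightly, stood at 10.94, 11.40, 10.81, 11.12 and 11.72 in GD100 controls and at 10.28, 10.36, 9.57 and 9.13 in GD165 controls. All GD165 controls lay below all GD100 controls, with a gap of 0.45. The GD165 values themselves spanned 1.23. The means were 11.20 ± 0.36 (SD, n = 5) and 9.83 ± 0.59 (SD, n = 4). The difference was -1.37 (SE 0.29, 95% confidence interval -1.98 to -0.75), with a limma adjusted p of 0.00334. The call was lost without GD165 control 5, at an adjusted p of 0.0108, and without GD165 control 6, at 0.0142. It was also lost with slide as a fixed block, at 0.0266, and with replicate number as a block, at 0.0407. With only the control groups in the fit it was lost at 0.014. Within the slides with both groups, the differences were -0.45 and -1.44.

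ESR2, the second estrogen receptor, ranged from 5.67 to 6.57 in GD100 controls and from 5.65 to 6.35 in GD165 controls, so the groups overlapped over most of their range. Its difference was 0.16 (SE 0.24, 95% confidence interval -0.36 to 0.68), with a limma adjusted p of 0.711. The interval still allows a change of up to 0.68 upward. ESRRB, known for its part in stem cells and the placenta, ranged from 1.50 to 4.58 in GD100 controls and from 2.91 to 4.96 in GD165 controls. Its difference of 1.15 had an interval from -0.37 to 2.68 and a limma adjusted p of 0.289. A change in ESRRB was not detectable at these signals.

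The same comparison in BPA-exposed uteri took its differences from other fetuses than the controls, while the spread behind its SEs and p-values was estimated over all 17 arrays. ESR1 rose 1.93-fold and ESRRG fell, to a level 3.52-fold lower, and 2 of 5 member probes passed the threshold, against 9.68% of all probes (4.82% higher, 4.86% lower). ESRRA was 1.23-fold higher and did not pass. The groups did not overlap for 3 of 5 member probes, ESR1, ESRRA and ESRRG, against 27.2% of all probes. ESR1 and ESRRG passed in both age comparisons, as did 6.67% of all probes.

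ESR1 stood at 9.87, 10.52, 10.18, 10.49 and 10.61 in GD100 BPA-exposed uteri and at 11.54, 11.28 and 11.03 in GD165 BPA-exposed uteri. The groups were again fully apart. The difference was 0.95 (SE 0.17, 95% confidence interval 0.58 to 1.32), with a limma adjusted p of 0.00174. The exact permutation test gave p = 0.0179, the smallest that 56 regroupings allow, and it gave the same p for ESRRA and ESRRG. Without GD165 BPA 3 the limma adjusted p for ESR1 was 0.0116, with slide as a fixed block 0.0569 and with only the exposed groups in the fit 0.0153. The 1 slide with both exposed groups gave a difference of 0.43 from 1 array against 1.

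ESRRG stood at 10.69, 10.31, 11.53, 11.02 and 11.44 in GD100 BPA-exposed uteri and at 9.23, 9.30 and 9.02 in GD165 BPA-exposed uteri. The gap of 1.01 between the nearest values was the widest of any member in either age comparison. The difference was -1.82 (SE 0.31, 95% confidence interval -2.48 to -1.15), with a limma adjusted p of 0.00111, and it passed under every processing alternative and with each array left out. The slide with both groups gave -2.42.

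ESRRA in the exposed fetuses was between 10.63 and 10.70 at GD100 and stood at 10.79, 11.07 and 11.00 at GD165. The 5 GD100 values spanned 0.07, the narrowest of any group and member. The difference was 0.30 (SE 0.09, 95% confidence interval 0.11 to 0.49), with a limma adjusted p of 0.0277. It passed the threshold in the deposited values without scaling between arrays, at an adjusted p of 0.00743. ESR2 differed by -0.45 (95% confidence interval -1.01 to 0.11, limma adjusted p 0.246) and its groups overlapped. ESRRB, well above background on 3 of 5 arrays at GD100 and 0 of 3 at GD165, had a limma adjusted p of 0.575, and no fold is given because its values lie near the floor in both groups.

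**Figure D2:**
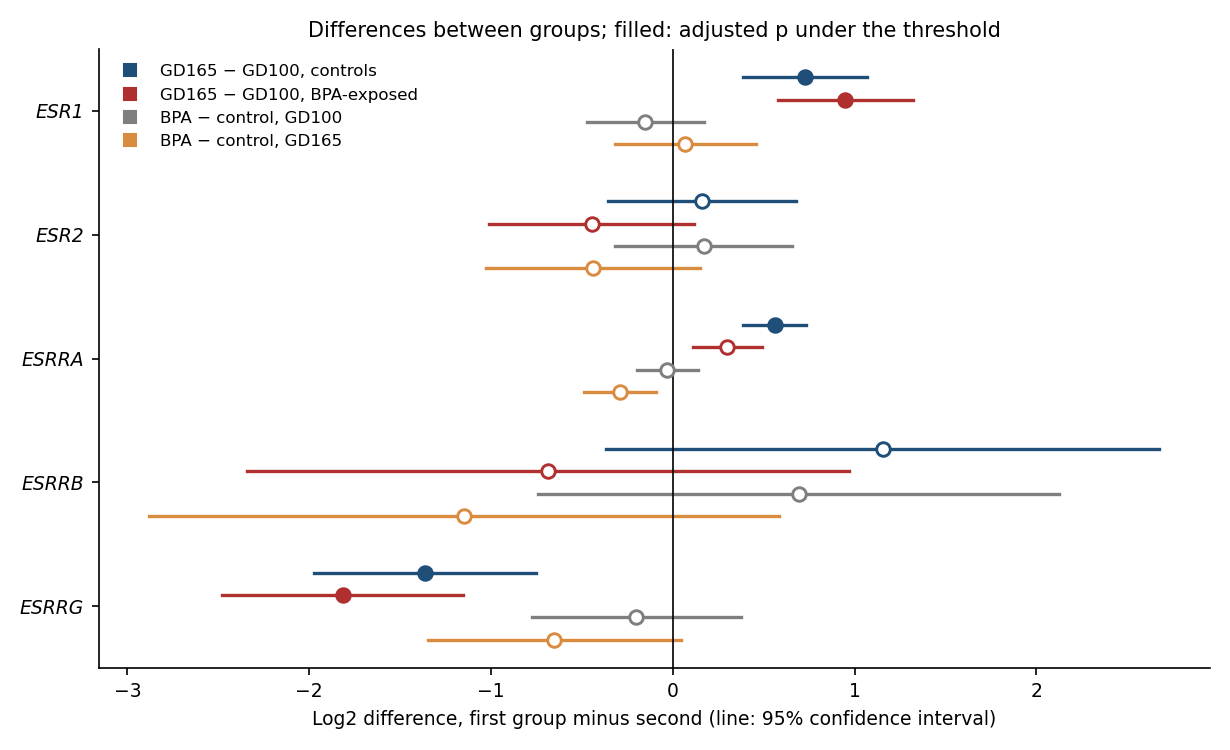
Log2 difference of each receptor probe between groups, with its 95% confidence interval from limma, for the change with age in controls and in BPA-exposed uteri and for BPA against control at each age. Filled points had an adjusted p under 0.01: ESR1 and ESRRG in both age comparisons and ESRRA in controls only, and no receptor in a BPA comparison. The intervals of ESRRB are the widest.

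Between GD100 BPA-exposed and control uteri, none of the 5 receptor probes passed the threshold, and neither did any probe of the array (0.0% of all probes, smallest adjusted p 0.578). All member groups overlapped, against 0.782% of all probes that did not overlap. At an unadjusted p under 0.05, 0 of 5 members and 3.79% of all probes (767) were counted. ESR1 averaged 10.33 ± 0.30 (SD, n = 5) in exposed and 10.49 ± 0.20 (SD, n = 5) in control uteri, a difference of -0.15 with a 95% confidence interval from -0.47 to 0.17. ESRRA was the most tightly bounded, at -0.03 with an interval from -0.19 to 0.14. ESRRG differed by -0.20 (interval -0.78 to 0.37), ESR2 by 0.17 (interval -0.32 to 0.66) and ESRRB by 0.69 (interval -0.74 to 2.13). These intervals leave room for a fall of ESRRG by up to 1.71-fold. On the 3 slides with both groups, the exposed uteri differed by -0.10, 0.13 and -0.82 for ESR1 and by 0.50, 0.04 and -0.12 for ESRRG, so neither kept a sign, and ESRRG turned to 0.18 with slide as a fixed block.

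At GD165 the BPA-exposed uteri again showed no receptor past the threshold, as no probe of the array passed (0.0% of all probes, smallest adjusted p 0.118). Of the 5 members, 4 were lower in the exposed group, among them ESRRB, whose levels are mostly at the floor. The median difference over all probes was -0.02. ESRRA was the 1 member with an unadjusted limma p under 0.05, against 8.61% of all probes (1740). All member groups overlapped, against 7.31% of all probes that did not. These values share the control arrays with the age comparison in controls.

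ESRRA averaged 10.95 ± 0.15 (SD, n = 3) in exposed and 11.24 ± 0.16 (SD, n = 4) in control uteri at GD165. The exposed values of 10.79, 11.07 and 11.00 lay below the controls except for the lowest control, at 11.04. The difference was -0.29 (SE 0.09, 95% confidence interval -0.49 to -0.09), a level 1.22-fold lower, with an unadjusted limma p of 0.00736, an adjusted p of 0.455 and an exact permutation p of 0.0857, where 35 regroupings allow 0.0286 at the smallest. The slide that held 2 exposed and 1 control uterus gave -0.44. In the deposited values without scaling the difference was -0.13 (interval -0.38 to 0.12, unadjusted limma p 0.278).

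ESRRG averaged 9.18 ± 0.15 (SD, n = 3) in exposed and 9.83 ± 0.59 (SD, n = 4) in control uteri. The exposed values sat together, within 0.28, with control 6 among them at 9.13, control 5 above them at 9.57 and controls 1 and 3 higher still. The difference was -0.65 with a 95% confidence interval from -1.35 to 0.04 and a limma adjusted p of 0.597. With slide as a fixed block it was -1.26 (interval -1.91 to -0.62, unadjusted limma p 0.00146, adjusted p 0.498). ESR1 differed by 0.07 (interval -0.32 to 0.46, limma adjusted p 0.955), and its sign turned when GD165 BPA 3 or GD165 control 6 was left out. ESR2 differed by -0.44 (interval -1.03 to 0.15, limma adjusted p 0.692), with 2 exposed uteri at 5.48 and 5.41 below all controls and the other at 6.15. The 2 ESR2 spots of the lowest control, control 5 at 5.65, were 0.48 apart on the log2 scale, and those of control 3 were 1.15 apart. ESRRB was well above background on 0 of 3 exposed arrays and 2 of 4 control arrays. The groups overlapped, the interval of its difference was -2.88 to 0.58 and its limma adjusted p was 0.739, so no fold is given. On the slide with 2 exposed uteri and 1 control, the differences were -0.01 for ESR1, -0.77 for ESR2 and -1.01 for ESRRG.

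The test of whether the BPA difference changed between the ages passed for no receptor, nor for any probe of the array (0.0%). ESRRA had the smallest p, with a difference of -0.26 between its BPA effects (95% confidence interval -0.52 to -0.00151), an unadjusted limma p of 0.0488 and an adjusted p of 0.634. Without scaling the ESRRA value was -0.06 (unadjusted p 0.69). With slide as a fixed block ESRRG had the smallest p, at -1.45 (interval -2.32 to -0.57, unadjusted limma p 0.00413, adjusted p 0.878), against -0.45 without the block. At an unadjusted p under 0.05, 7.83% of all probes (1584) were counted. The passing of ESRRA in controls and not in exposed uteri is therefore not shown to be a difference between them.

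In order of mean level, ESR1 ran from GD165 BPA at 11.28 and GD165 control at 11.21 to GD100 control at 10.49 and GD100 BPA at 10.33. ESRRA ran from GD165 control at 11.24 and GD165 BPA at 10.95 to GD100 control at 10.68 and GD100 BPA at 10.65. ESRRG ran the other way, from GD100 control at 11.20 and GD100 BPA at 11.00 to GD165 control at 9.83 and GD165 BPA at 9.18. For these 3 genes no neighbours of the same age passed the test. The order of the ESR2 and ESRRB groups lay within their spread.

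The receptors did not vary as 1 group. Over the 17 arrays, Pearson's r of the levels was 0.68 between ESR1 and ESRRA, -0.69 between ESR1 and ESRRG and -0.67 between ESRRA and ESRRG, and these points share the difference in age. For deviations from the group means, which leave the age difference out, r was -0.41, 0.34 and -0.10 for the same pairs. The highest r of deviations between members was 0.58, for ESR2 and ESRRB, which are also the dimmest probes.

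Among genes well above background on all arrays, the levels most like ESR1 over the 17 arrays were those of ABHD13 (r = 0.94), AES (r = 0.94), a corepressor, and PRKAG2 (r = 0.93), a subunit of the energy sensor AMPK. For ESRRA they were FHL1 (r = 0.96), PPP1R14A (r = 0.96), the smooth muscle inhibitor of myosin phosphatase, and MGC35521 (r = 0.96). For ESRRG they were GABRG1 (r = 0.94), MDM1 (r = 0.93) and GABRA2 (r = 0.93), of which GABRG1 and GABRA2 encode subunits of the GABA-A receptor. These likenesses hold the age difference. For deviations from the group means, genes among the nearest were LMAN1 and ARMC8 for ESR1 (r = 0.88 for each), ANGPTL2, ASPN and COX7A2L for ESRRA (r = 0.89 to 0.91) and SHOX2, SPRY1 and MDM1 for ESRRG (r = 0.84 to 0.86). MDM1 was thus near ESRRG by both measures. ESR2 was nearest to TINAG, FLJ44385 and WWOX by levels and to TINAG, ARR3 and WWOX by deviations (r = 0.84 to 0.88), and ESRRB to SLC6A2, ASB4 and CCPG1 by levels and RGS8, ASB4 and SLC6A2 by deviations (r = 0.91 to 0.94), the latter from signals mostly at the floor.

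Genes that act with the receptors were looked at in lists. Of 24 estrogen receptor coregulators on the array, none rose and 3 fell with age in controls, and 1 of 24 fell in exposed uteri, beside 11.5% and 9.68% of all probes called in these comparisons, so the counts are near or below the background. These were PRMT1, an arginine methyltransferase, lower by 0.39 in controls (limma adjusted p 0.00741) and by 0.50 in exposed uteri (adjusted p 0.00334), PELP1, lower by 0.33 in controls (adjusted p 0.00558), and SPEN, a corepressor, lower by 0.34 in controls (adjusted p 0.00735). The median difference over the list was -0.05 in controls and 0.01 in exposed uteri, beside 0.00 and -0.05 over all probes.

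Of 12 pioneer factors and chaperones, which open chromatin for ERα or hold it ready for hormone, 1 rose with age in each comparison and none fell. Of all probes, 11.5% were called in controls and 9.68% in exposed uteri, so this count is near the background. The gene that rose was FOXA2, a factor of uterine glands. It went from 4.04 ± 0.58 (SD, n = 5) to 6.42 ± 1.05 (SD, n = 4) in controls (difference 2.38, SE 0.41, limma adjusted p 8.7e-04) and rose by 2.73 in exposed uteri. FOXA2 was well above background on 3 of 5 arrays at GD100 in each comparison. The list's median was 0.01 in controls and -0.26 in exposed uteri.

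Of 6 other receptors that BPA may bind, THRB and NR1I2 rose with age in controls and only NR1I2 passed in exposed uteri. Of all probes, 11.5% and 9.68% were called in these comparisons. NR1I2, the xenobiotic receptor PXR, rose by 2.18 in controls (SE 0.26, limma adjusted p 4.7e-05) and by 2.35 in exposed uteri. THRB, the thyroid hormone receptor β, rose by 1.02 in controls (limma adjusted p 0.00187) and was higher by 0.85 in exposed uteri (adjusted p 0.0115). GPER1, the membrane estrogen receptor, differed by -0.18 and 0.13 and did not pass in either. In each group, 2 of the 6 genes were not well above background on any array.

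Among the targets, 2 of 19 estrogen response genes rose with age in controls and the same 2 in exposed uteri, and none fell, close to the 11.5% and 9.68% of all probes called. CTSD, a lysosomal protease, rose by 0.47 and 0.49, and RERG, a growth inhibitor induced by estrogen, by 1.08 and 1.37. GREB1, a classical ERα target, differed by 0.36 in controls and -0.26 in exposed uteri without passing, and the probe of PGR, the progesterone receptor, was well above background on 0 of the 17 arrays. Of 17 ERR target genes and 3 ERR coactivators, none passed in either age comparison. PDK4, an ERR target that spares glucose, was higher by 2.35 in controls (limma adjusted p 0.0137), and the coactivator PPARGC1B (PGC-1β) by 0.56 (adjusted p 0.0137). The median of the ERR targets was 0.02 in controls and -0.01 in exposed uteri, and that of the 3 coactivators was 0.56 in controls and 0.04 in exposed uteri.

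None of the genes in these lists passed in either BPA comparison.

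**Figure D3:**
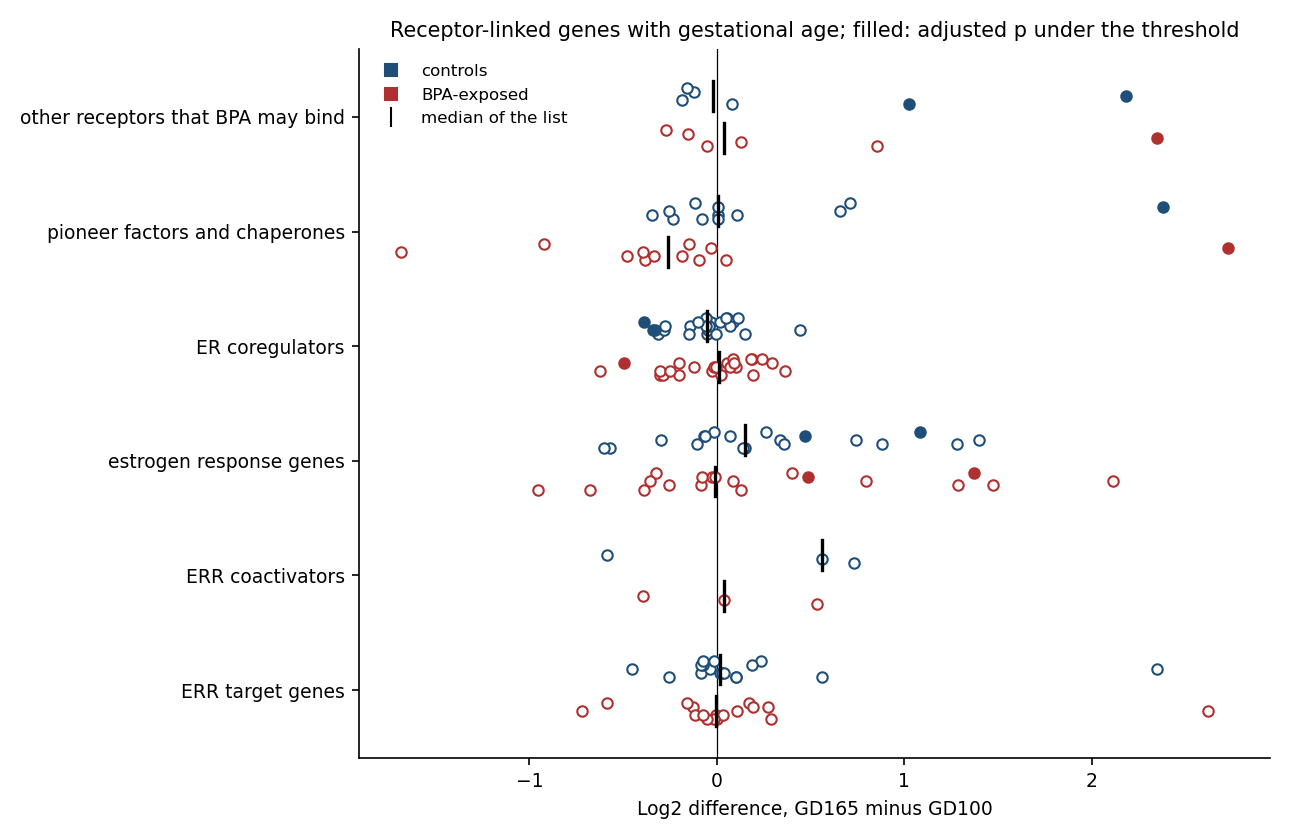
Log2 difference from GD100 to GD165 for each gene of 6 lists of receptor-linked genes, in controls and in BPA-exposed uteri; black bars are list medians. Filled points had an adjusted p under 0.01. FOXA2, NR1I2, RERG and CTSD were filled on the right in both comparisons, and no ERR coactivator or ERR target was filled.

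Proliferation genes and some markers of the tissue's cell types also differed with age. Over all probes, 6.32% were called higher and 5.2% lower in controls, and 4.82% higher and 4.86% lower in exposed uteri. All 10 proliferation genes fell in both comparisons, and their summed level ranged over 16.54 to 16.73 in GD100 controls and 15.13 to 15.61 in GD165 controls, and over 16.52 to 16.68 in GD100 and 15.19 to 16.17 in GD165 exposed uteri. Of 8 columnar epithelium markers, 4 rose in controls and 2 in exposed uteri, with summed levels of 16.45 to 17.09 at GD100 and 17.54 to 17.87 at GD165 in controls and of 16.36 to 16.91 and 17.11 to 17.59 in exposed uteri. Of 8 leukocyte markers, 2 rose in each, with summed levels of 14.81 to 15.41 and 16.32 to 16.80 in controls and of 14.57 to 15.26 and 15.97 to 17.26 in exposed uteri. None of the genes in these 3 lists was below background on every array of any group.

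Of 10 smooth muscle markers, 3 rose in controls and 1 in exposed uteri, with summed levels of 20.68 to 21.15 and 20.99 to 21.41 in controls and of 20.77 to 21.05 and 20.90 to 21.30 in exposed uteri. Of 6 stroma markers, PDGFRA fell in controls and none passed in exposed uteri, with summed levels of 19.78 to 20.10 and 19.58 to 20.05 in controls. Of 7 endothelium markers, VWF rose in both. A count of 1 called in a list is near the shares of all probes given above. By direction, 10 of 10 smooth muscle markers were higher at GD165 in both comparisons (median 0.36 in controls, 0.31 in exposed uteri). So were 6 of 7 endothelium markers (medians 0.39 and 0.38). Stroma markers were lower, 6 of 6 in controls and 5 of 6 in exposed uteri (medians -0.29 and -0.26). Medians over all probes were 0.00 and -0.05, and no list was tested as a whole. Of 8 skeletal muscle markers, 3 rose in controls and 1 in exposed uteri, with 2 markers at background on all arrays of the GD100 controls. Of 7 erythroid markers, HBB rose in both and none of the others passed, with 5 of 7 lower at GD165 in each comparison, a median of -0.05 in controls and -1.59 in exposed uteri, and 1 marker at background in every group. Their summed levels were 17.92 to 18.68 at GD100 and 18.76 to 20.27 at GD165 in controls and 18.75 to 19.32 and 18.29 to 19.73 in exposed uteri. No squamous epithelium marker passed with age, with 7 of 8 higher at GD165 in controls (median 1.08) and 5 of 8 in exposed uteri (median 0.15). Summed squamous levels were 13.40 to 14.24 and 13.59 to 16.90 in controls. In exposed uteri they were 13.69 to 14.39 and 13.50 to 14.01. The part of these cells, of the fall in proliferation genes and of the mode of delivery in the differences of ESR1, ESRRA and ESRRG was not tested.

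At GD165, 7 of 8 columnar epithelium markers and 9 of 10 smooth muscle markers were lower in exposed than in control uteri, beside the lower ESRRA and ESRRG values. So were 7 of 8 skeletal muscle markers (median -0.83) and 6 of 7 erythroid markers (median -0.65), while 10 of 10 proliferation genes were higher (median 0.18). Leukocyte (5 of 8), endothelium (4 of 7) and stroma (4 of 6) markers were more often higher than lower. The median over all probes was -0.02. None of these markers or genes passed the test. Of 8 squamous epithelium markers, 7 were lower (median -1.22) and no marker was past the test. They had summed levels of 13.59 to 16.90 in GD165 controls and 13.50 to 14.01 in exposed uteri. Their part in the receptor values was not tested.

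**Figure D4:**
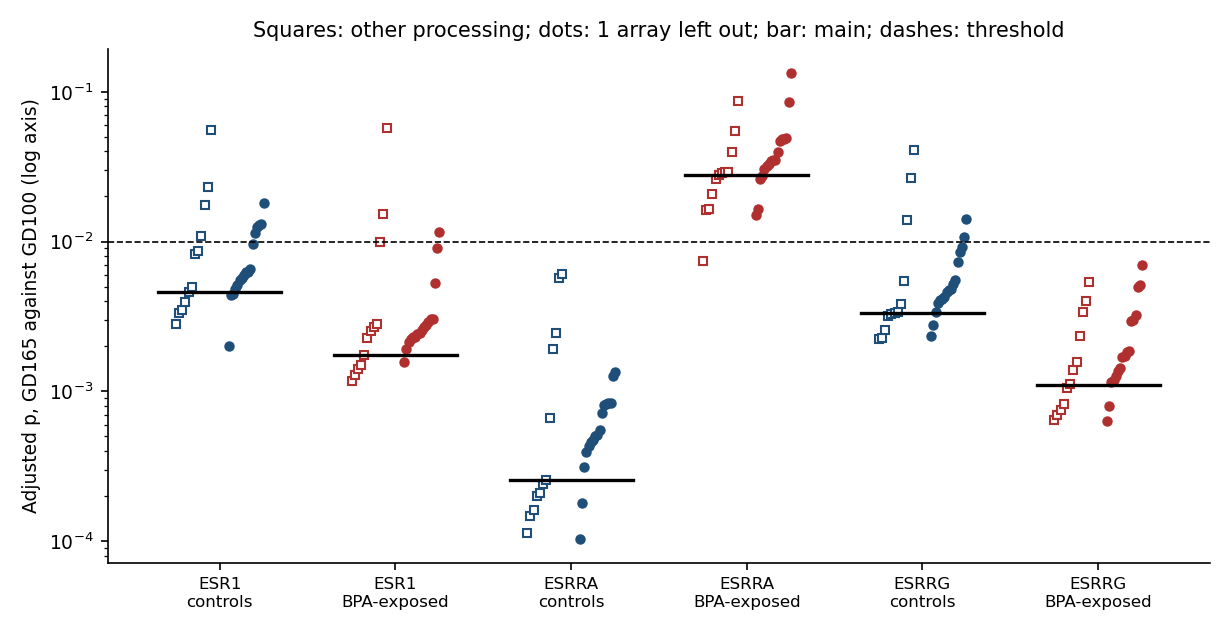
Adjusted p of the age difference (log axis) for ESR1, ESRRA and ESRRG in controls and in BPA-exposed uteri, under other processing (squares), with 1 array left out (dots) and as reported (bars), with the threshold of 0.01 dashed. ESRRA in controls and ESRRG in exposed uteri stayed below it throughout, while ESR1 crossed it in both comparisons and ESRRG in controls.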

How the data were processed

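RNA of 17 individual fetal uteri was hybridised to single-color Agilent rhesus arrays. The authors deposited linear intensities from Feature Extraction 9.5, background-subtracted and detrended, without scaling between arrays. The table of all arrays held the same processed signals in 711467 of 711467 values, and the scanner files were used. Control spots and spots marked as outliers were left out, log2 intensities of the 2 spots per probe were averaged and each array's 75th percentile was subtracted. Gene names came from the array annotation and RefSeq tables and covered 18018 probes (89.12%).

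limma 3.58.1 in R 4.3.3 (lmFit, eBayes) was fitted to all 20217 probes and 17 arrays with 4 groups and no other term. The tests were two-sided, with Benjamini-Hochberg adjustment over all probes and a threshold of 0.01, as in the methods of the study, whose error-weighted ANOVA was not run. Exact permutation tests went through every regrouping in Python 3.11.15 with numpy 2.4.6. The script was tested on simulated data. Intervals are 95%. List genes are named where they passed, up to 4 a list with the smallest p, and the other list genes given with values were chosen after their values were seen. Where probes shared a gene, the brightest was taken. Likeness is the highest Pearson r. One gene that this rule names is not reported here. The receptors, the lists and the tests were chosen with earlier results of these data known. The labels name separate fetuses, so p-values measure the spread between animals. The alternatives were other scaling, background correction, filters, weights, moderation, slide or replicate number as a block, the compared groups alone, a threshold of 0.05 and leaving out each array in turn.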

Additional observations from a re-analysis of the deposited data

How the results depend on the processing

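Over 13 alternative settings and 17 fits with 1 array left out, 716 of 740 receptor values kept direction and side of the threshold, 17 lost the call, 2 gained it and 5 changed sign. Most of the 740 were values not called in the fit reported, which had no call to lose. Leaving out an array outside a comparison also cannot change its difference. The 17 losses were ESR1 in controls (9 lost, 21 kept), ESRRG in controls (5 lost, 25 kept) and ESR1 in exposed uteri (3 lost, 27 kept). In controls, the count of receptors called with age fell from 3 to 1 with slide as a fixed block and with a replicate block (adjusted p 0.0176 for ESR1 and 0.0407 for ESRRG), and was 1 to 3 with 1 array left out (1 without GD165 control 5, which lost ESR1 and ESRRG). In exposed uteri, it fell from 2 to 1 with slide as a fixed block and with only the groups compared in the fit, and was 1 to 2 with 1 array left out. The sign of ESR1 for BPA at GD165 turned to -0.0433 with slide as a fixed block and -0.0856 with the replicate block and ran from -0.0566 (without GD165 BPA 3) to 0.194 with 1 array left out, and that of ESRRG for BPA at GD100 to 0.183 with slide as a fixed block. ESRRG for BPA at GD165 was -0.94 with the replicate block (interval -1.76 to -0.12, adjusted p 0.584). The cause was not tested. The replicate numbers share only a name: same-numbered arrays deviated together with r of -0.17 to 0.16 over 19 pairs, and others with -0.21 to 0.23 over 88. Over all probes, calls with age in controls (2328) were 1531 without scaling, 1233 with slide as a fixed block, 958 with the replicate block, 1172 with only the groups compared, 1512 without GD165 control 6 and 4279 at a threshold of 0.05. In exposed uteri (1956) they were 512 with slide as a fixed block, 1176 with only the groups compared, 994 and 1181 without GD165 BPA 4 and 5, and 4255 at 0.05. For BPA, 1 probe of the array passed in some settings, at GD100 with only the groups compared and without GD165 BPA 4, and at GD165 without GD165 control 1, 3 or 6. The interaction gained 1 without GD165 BPA 4. A mean over several probes of a gene could not be made, since each receptor has 1 probe, and the filter on dim probes left ESRRB out. The interaction uses all groups, so a fit of the compared groups alone is the fit reported. Signal near background limits ESRRB on 10 of 17 arrays.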
